A study of Mus musculus with 12 samples.

Results

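The comparison was made between mouse dorsal root ganglia taken 3 days after a spared nerve injury and ganglia of naive mice. Its members are 6 of the 12 libraries of the series, 3 labelled day 3 and 3 labelled naive, chosen by their titles. All mice were adult C57BL/6J males, 9 to 10 weeks old, with no transgene named in the labels. In the injured mice the common peroneal and tibial nerves were tied and cut. The sural nerve was left intact. A ganglion after this operation therefore holds neurons with cut axons beside neurons with intact ones. The naive mice carry no treatment in the labels, and no sham-operated mice were analysed here. The remaining 6 libraries, 3 from day 1 and 3 from day 7 after the injury, serve below to place day 3 in time. The labels do not say which ganglia were taken, how many were pooled, or whether each library came from its own animals, so the p-values measure the spread between these libraries, which may be technical.

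Dorsal root ganglia hold the cell bodies of the sensory neurons of the trunk and limbs, wrapped by satellite glia, with Schwann cells along the axons and with resident macrophages and vessels. When a peripheral axon is cut, the cell body is known to switch on transcription factors such as Atf3 and Jun and a set of growth-associated proteins and neuropeptides, and to turn down many of its ion channels and receptors. Neurons also release colony-stimulating factor 1 (Csf1), and macrophages gather in the ganglion.

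The injury markers were high in the day 3 libraries. Sprr1a, a small proline-rich protein of injured, regrowing neurons (mm10, chr3:92483952-92485895, minus strand), stood at 232, 305 and 229.9 RPKM (reads scaled by gene length and library size) in the day 3 libraries, against 2.12, 3.09 and 1.42 RPKM in the naive libraries. Gal, the precursor of the neuropeptide galanin (chr19:3409915-3414544, minus strand), stood at 64.7, 93.2 and 76.9 RPKM at day 3, against 2.395, 1.79 and 2.64 RPKM in naive ganglia. Gap43, a growth cone protein (chr16:42248442-42340651, minus strand), stood at 126, 143 and 113 RPKM at day 3, against 44.5, 28.99 and 30.5 RPKM in naive ganglia. For each of these markers the lowest day 3 library lay above the highest naive one, so the markers go with the label of the group. The log2 differences were 6.57 for Sprr1a (SE 0.53, adjusted p = 8.32e-05), 4.80 for Gal (SE 0.25, adjusted p = 2.18e-07) and 1.85 for Gap43 (SE 0.22, adjusted p = 1.92e-04). Here and below, levels are RPKM as deposited, and log2 differences are day 3 minus naive on log2(RPKM + 0.5) after scaling between libraries, which understates changes of genes at low levels. The p-values come from limma over all tested genes with Benjamini-Hochberg adjustment, and "rose" or "fell" means an adjusted p under 0.05.

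**Figure D1:**
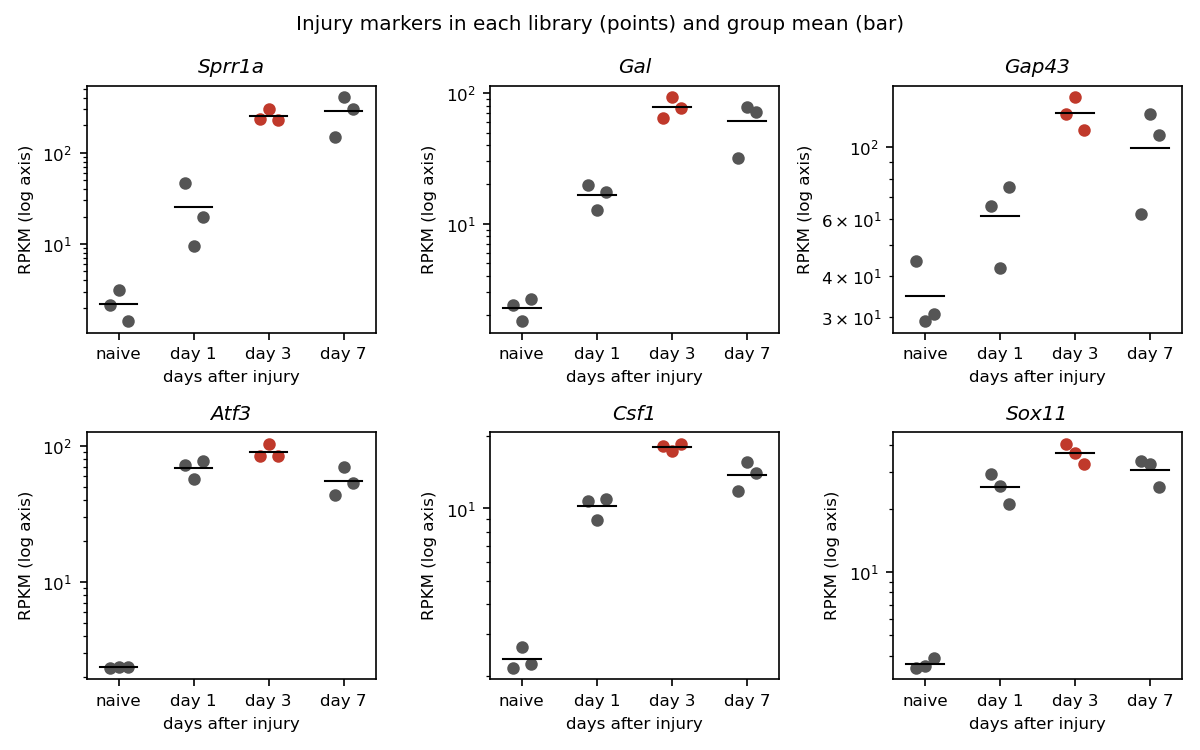
RPKM (log axis) of 6 injury markers in each of the 12 libraries, by days after injury, with the naive libraries at the left of each panel; points are libraries, bars are group means, and day 3 is in red. All 3 day 3 libraries lie above all 3 naive libraries for each of the 6 genes, and Sprr1a averages 255.5 RPKM at day 3 and 2.21 RPKM in naive ganglia.

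The upstream sequence of 3 of the strongest risers is shown because Atf3 and Jun, which both rose, belong to the family of factors that binds AP-1 and C/EBP-ATF elements. Each run gives the 250 bases before the RefSeq start site (GRCm38.p6), 5′ to 3′ on the strand of the gene, with matches to the AP-1 motif TGANTCA or the C/EBP-ATF motif TGATGNAA, on either strand, in capitals. Sprr1a lies at chr3:92485882-92486131, Atf3 at chr1:191183334-191183583 and Gal at chr19:3414545-3414794, all on the minus strand.
Sprr1a: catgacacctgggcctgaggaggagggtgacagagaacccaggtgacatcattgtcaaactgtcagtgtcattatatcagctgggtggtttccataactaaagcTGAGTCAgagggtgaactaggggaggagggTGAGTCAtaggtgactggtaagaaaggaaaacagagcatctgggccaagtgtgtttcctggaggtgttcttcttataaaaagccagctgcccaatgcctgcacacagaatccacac
Atf3: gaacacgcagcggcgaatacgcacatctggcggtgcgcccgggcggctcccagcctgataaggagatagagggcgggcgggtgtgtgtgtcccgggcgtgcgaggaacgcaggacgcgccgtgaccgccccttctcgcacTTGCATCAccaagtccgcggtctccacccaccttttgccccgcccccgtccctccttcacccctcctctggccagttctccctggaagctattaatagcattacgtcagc
Gal: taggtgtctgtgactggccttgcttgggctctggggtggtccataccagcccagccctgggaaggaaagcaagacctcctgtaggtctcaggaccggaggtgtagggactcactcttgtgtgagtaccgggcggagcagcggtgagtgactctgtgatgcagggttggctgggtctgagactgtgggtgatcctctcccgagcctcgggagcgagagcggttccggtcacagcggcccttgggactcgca
The Sprr1a window holds 2 AP-1 matches, which begin at -146 and -116 counted from the start site, and the Atf3 window holds 1 C/EBP-ATF match, TTGCATCA, at -110. The Gal window holds neither motif. In the window of Nts, another strong riser, an AP-1 match begins at -207 and a C/EBP-ATF match at -159. The windows of Npy, Sez6l, Sox11, Lmo7, Gadd45a and Csf1 hold none of the motifs searched. Over windows of this length, AP-1 matches were in 20 of 205 windows (9.76%) of the genes at least 2-fold higher at day 3, in 38 of 504 (7.54%) of all genes that rose, in 14 of 293 (4.78%) of genes that fell and in 596 of 13082 (4.56%) of tested genes. The share in all 32851 windows of the table was 6.75%, above that of the tested genes. The C/EBP-ATF motif was in 2.44% of windows of the genes at least 2-fold higher, 2.39% of those that fell and 2.10% of those tested, and the cAMP-response element TGACGTCA was in 0.976%, 1.37% and 2.51% of the same sets. Each motif match is a match of letters and was not tested for binding, and 167 of the 232 genes at least 2-fold higher had a window in the table.

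Across the 14195 genes that reached 1 RPKM in at least 3 of the 12 libraries, 805 (5.67%) passed the test at day 3, of which 528 (3.72%) rose and 277 (1.95%) fell. The counts given below for gene lists are to be read beside these shares. The lists were chosen with earlier results of these data known. The rises were larger: 232 genes (1.63%) rose at least 2-fold, 39 at least 4-fold and 14 at least 8-fold, while 16 (0.113%) fell at least 2-fold. The median log2 difference was 0.92 among genes that rose, -0.67 among genes that fell and 0.0016 over all tested genes. The genes called as falling had a median of 16.8 RPKM in naive ganglia, against 4.88 RPKM for genes that rose and 6.14 RPKM for all tested genes. The calls used these same naive values, on a scale that understates changes of genes at low levels. A gene low in naive ganglia can rise but has little room for a called fall. These medians therefore cannot show that falls favoured strongly expressed genes. In whole ganglia, fewer cells of a type and less RNA per cell cannot be told apart. The groups did not overlap in 804 of the 805 called genes, so a lack of overlap, wherever it is given, adds little to a call. The number of calls depends on the number of libraries: leaving out naive replicate 2 gave 445, naive replicate 3 gave 449, day 3 replicate 2 gave 481, day 3 replicate 1 gave 508 and day 3 replicate 3 gave 536. Of the 138 genes named under the rule for this comparison that passed the test, 93 passed under every other setting that measured them.

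**Figure D2:**
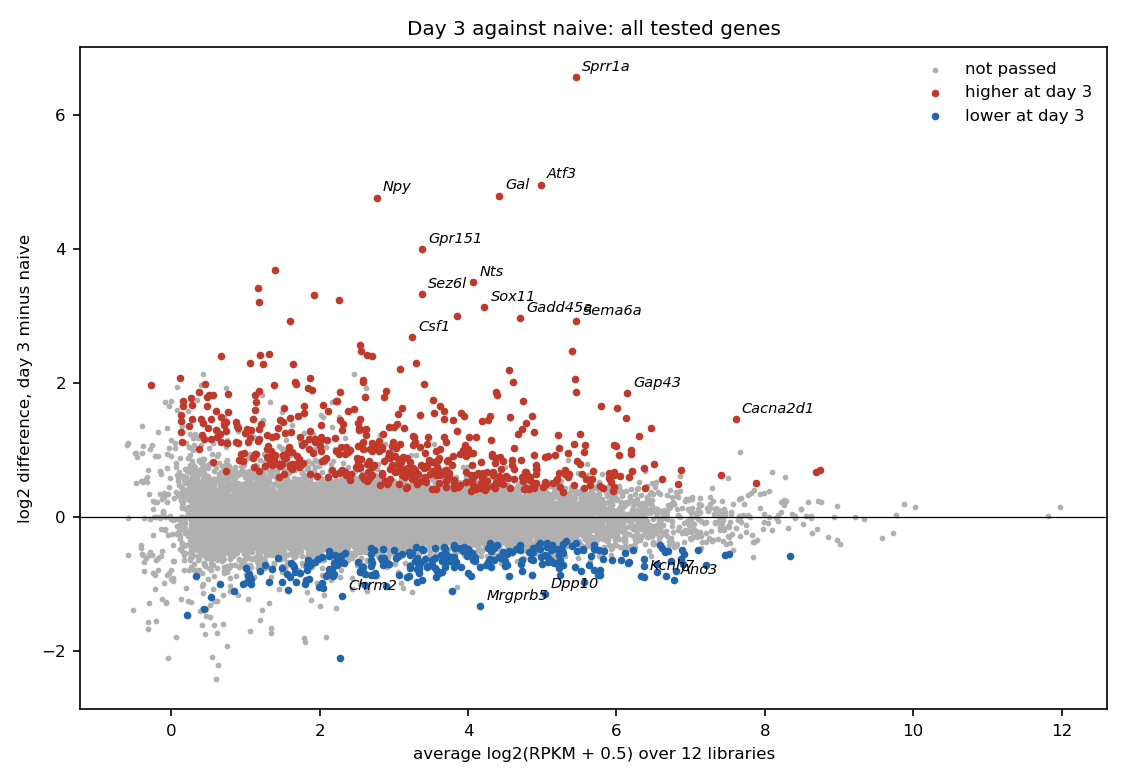
Log2 difference, day 3 minus naive, of each of the 14195 tested genes against its average log2(RPKM + 0.5) over the 12 libraries; red genes rose, blue genes fell and grey genes did not pass. Rises reach 6.57 (Sprr1a), while called falls lie mostly between 0 and -1, among genes of middle to high level.

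Library sizes recovered from the files ran from 13626893 to 17952865 reads over the 12 libraries, and between 18374 and 18679 genes were above 0 in the 6 libraries compared. Pearson's r between replicates of log2 values was 0.964 to 0.969 at day 3 and 0.968 to 0.976 in naive ganglia, over tested genes. Skeletal muscle transcripts stood out in naive replicate 1, with 57.7 RPKM summed over 17 marker genes, against 8.03 to 10.5 in the day 3 libraries and 10.5 to 14.7 in the other naive ones. Day 3 replicate 3 stood out for neutrophil and monocyte markers, with 76.7 RPKM summed over 14 genes, against 18.6 and 21.5 in the other day 3 libraries and 21.8 to 25.2 in naive ones. Transcripts of ribosomal protein genes summed to 1274, 2008 and 1794 RPKM at day 3 and 1715, 1080 and 1174 RPKM in naive ganglia, so that day 3 replicate 1 and naive replicate 1 each sat with the other group. The part of these differences in the results was not tested beyond the values given beside them.

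Of 22 tested members of a list of 26 injury transcription factors, 10 rose and none fell, with a median log2 difference of 0.48. The members were picked as factors of the injury response, so the count is no result about transcription factors as a class. Atf3, a basic leucine zipper factor that marks axotomised neurons, stood at 84.1, 104 and 84.1 RPKM in day 3 libraries, against 2.33, 2.38 and 2.37 RPKM in naive libraries (log2 difference 4.96, SE 0.14, adjusted p = 7.80e-11). The 3 naive libraries were close together and far below every day 3 library. Sox11, an HMG-box factor of neuronal development and regrowth, stood at 40.7, 36.8 and 32.6 RPKM at day 3, against 3.500, 3.56 and 3.89 RPKM in naive ganglia (log2 difference 3.13, SE 0.18, adjusted p = 1.36e-07). Jun, the partner of Fos and Atf3 proteins in AP-1 dimers, stood at 26.5, 28.2 and 25.03 RPKM at day 3, against 11.01, 7.51 and 8.23 RPKM in naive ganglia (log2 difference 1.51, SE 0.17, adjusted p = 8.00e-05). The day 3 libraries were again all above the naive ones for both genes. Nfil3, a bZIP repressor, averaged 5.498 ± 0.767 RPKM at day 3 and 1.06 ± 0.233 RPKM in naive ganglia (SD, n = 3 each, as for all values written with ±; log2 difference 1.92). Fosl2, an AP-1 subunit, averaged 7.14 ± 0.528 RPKM at day 3 and 2.51 ± 0.375 RPKM in naive ganglia (1.32). Smad1, which carries bone morphogenetic protein signals, averaged 32.5 ± 2.25 RPKM at day 3 and 15.3 ± 0.523 RPKM in naive ganglia (1.03). Klf6, a zinc finger factor, averaged 47.1 ± 1.85 RPKM at day 3 and 22.3 ± 0.448 RPKM in naive ganglia (1.03). Stat3, the factor activated by gp130 cytokines, rose by a log2 difference of 0.46 (adjusted p = 0.0199). The call was lost when any single library of the 2 groups was left out (adjusted p 0.0539 to 0.103). Of 11 tested immediate early genes, Jun, Fosl2 and the phosphatase gene Dusp1 rose and the other 8 did not pass. Dusp1 averaged 10.4 ± 1.57 RPKM at day 3 and 4.71 ± 0.574 RPKM in naive ganglia (log2 difference 1.03).

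The genes of axon growth and of the growing membrane held the largest rise of all, Sprr1a. Of 25 tested members of a list of 27, 14 rose and none fell, with a median log2 difference of 0.69. The count was 8 without day 3 replicate 3 and 9 without naive replicate 2. The members were picked as proteins of axon growth and injury, so the count is no result about membrane proteins as a class. Sez6l, a brain membrane protein of the Sez6 family, stood at 25.5, 22.3 and 20.97 RPKM at day 3, against 1.49, 2.22 and 1.69 RPKM in naive ganglia (log2 difference 3.33, SE 0.15, adjusted p = 2.03e-08). Lmo7, a LIM-domain protein of cell junctions, stood at 34.1, 31.1 and 27.5 RPKM at day 3, against 3.25, 3.94 and 2.85 RPKM in naive ganglia (log2 difference 3.01, SE 0.14, adjusted p = 2.08e-08). Flrt3, a leucine-rich adhesion receptor, stood at 71.7, 75.6 and 65.95 RPKM at day 3, against 12.3, 13.1 and 11.1 RPKM in naive ganglia (log2 difference 2.47, SE 0.14, adjusted p = 1.61e-07). In all 3 genes the lowest day 3 library lay above the highest naive one. Ecel1, an endopeptidase-like protein of damaged neurons, averaged 7.49 ± 1.71 RPKM at day 3 and 0.293 ± 0.215 RPKM in naive ganglia (log2 difference 3.32). The calcium-binding pair Anxa1, a phospholipid-binding annexin, and S100a11, its partner, averaged 19.4 ± 3.68 and 39.8 ± 7.34 RPKM at day 3 and 3.53 ± 1.19 and 9.17 ± 1.16 RPKM in naive ganglia.

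Among 24 tested tubulins and microtubule regulators, 5 rose and none fell (median log2 difference 0.30). The count was 3 without day 3 replicate 2, day 3 replicate 3, naive replicate 2 or naive replicate 3, and 3 without scaling. Stmn4, a stathmin that binds tubulin dimers, stood at 11.4, 9.81 and 8.82 RPKM at day 3, against 1.42, 0.8704 and 1.87 RPKM in naive ganglia (log2 difference 2.49, SE 0.24, adjusted p = 2.09e-05). The tubulins Tuba1c and Tubb6 averaged 6.96 ± 1.93 and 22.5 ± 1.53 RPKM at day 3 and 1.95 ± 0.675 and 11.1 ± 0.268 RPKM in naive ganglia, with log2 differences of 1.59 and 0.96. Stmn2, an abundant neuronal stathmin, also passed (log2 difference 0.71, adjusted p = 0.0352), but not without scaling (adjusted p = 0.089), and it lost the call without any 1 of the 6 libraries other than naive replicate 1 (adjusted p 0.0504 to 0.169).

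Of 44 tested semaphorins, plexins, ephrins, Slits and netrins, 4 rose and none fell, with a median log2 difference of -0.06. Sema6a, a transmembrane semaphorin, stood at 89.8, 82.4 and 75.2 RPKM at day 3, against 10.1, 10.9 and 9.69 RPKM in naive ganglia (log2 difference 2.92, SE 0.16, adjusted p = 1.14e-07). Plxna4, a semaphorin receptor, stood at 123, 103 and 99.2 RPKM at day 3, against 39.4, 51.2 and 46.4 RPKM in naive ganglia (log2 difference 1.21, SE 0.16, adjusted p = 3.35e-04). Sema4f averaged 25.2 ± 1.55 RPKM at day 3 and 13.98 ± 1.23 RPKM in naive ganglia (log2 difference 0.80). Of 23 tested integrins and adhesion molecules, 4 rose and 1 fell. None fell with any 1 of the 6 libraries left out other than naive replicate 1. Itga7, a laminin-binding integrin, stood at 33.5, 32.8 and 29.6 RPKM at day 3, against 8.695, 8.299 and 8.42 RPKM in naive ganglia (log2 difference 1.83, SE 0.12, adjusted p = 6.72e-07). Chl1, an L1-family adhesion molecule, averaged 121 ± 9.66 RPKM at day 3 and 47.1 ± 1.74 RPKM in naive ganglia (log2 difference 1.32, SE 0.19, adjusted p = 6.96e-04). Cd44, the hyaluronan receptor, averaged 72.3 ± 5.23 RPKM at day 3 and 45.95 ± 1.22 RPKM in naive ganglia (log2 difference 0.62). The day 3 libraries of Itga7, Chl1 and Cd44 all lay above the naive ones.

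Of 36 tested fibroblast and matrix genes 5 rose and none fell, with a median log2 difference of 0.02. The membrane proteases Adam8 and Mmp16 led, at 12.5, 14.54 and 12.7 RPKM and 44.3, 39.5 and 35.4 RPKM in the day 3 libraries, against 2.167, 2.44 and 2.65 RPKM and 8.25, 7.23 and 8.74 RPKM in the naive libraries. Their log2 differences were 2.21 (SE 0.15, adjusted p = 6.72e-07) and 2.20 (SE 0.16, adjusted p = 1.34e-06). The matrix enzymes Loxl2, a lysyl oxidase, and Adamts1, a secreted metalloprotease, rose less, with log2 differences of 1.19 and 0.74.

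Neuropeptides induced by injury had the highest median of the lists described here. The members were picked as peptides that injury induces, so this rank is no result about neuropeptides as a class. Of 13 listed, 8 were tested and 5 rose (median log2 difference 1.80), and none fell. Npy, neuropeptide Y, which naive sensory neurons scarcely make, stood at 16.1, 20.1 and 20.4 RPKM at day 3, against 0.6401, 0.109 and 0 RPKM in naive ganglia (log2 difference 4.77, SE 0.28, adjusted p = 5.60e-07). Nts, the precursor of neurotensin, stood at 37.6, 59.2 and 42.3 RPKM at day 3, against 4.67, 2.52 and 3.52 RPKM in naive ganglia (log2 difference 3.51, SE 0.29, adjusted p = 1.84e-05). Adcyap1, the precursor of PACAP, stood at 63.6, 70.3 and 69.1 RPKM at day 3, against 19.4, 15.7 and 18.4 RPKM in naive ganglia (log2 difference 1.87, SE 0.18, adjusted p = 1.84e-05). For all 3 genes every day 3 library was above every naive library. Vgf, a secretory granule peptide precursor, averaged 6.35 ± 1.63 RPKM at day 3 and 1.498 ± 0.168 RPKM in naive ganglia (log2 difference 1.73). Among peptide receptors and processing enzymes the count was small, 2 risers and 1 faller of 13 tested. There was no faller with any 1 of the 6 libraries left out, and 1 riser without day 3 replicate 2 or 3 or naive replicate 2 or 3. Cckbr, a receptor for cholecystokinin and gastrin, stood at 5.45, 6.93 and 5.07 RPKM at day 3, against 0.421, 0.192 and 0.345 RPKM in naive ganglia (log2 difference 2.93, SE 0.19, adjusted p = 5.60e-07). Gpr151, an orphan receptor, was the single riser among 21 tested injury-related G protein-coupled receptors, at 21.9, 37.7 and 29.4 RPKM at day 3, against 1.58, 1.53 and 0.888 RPKM in naive ganglia (log2 difference 4.01, SE 0.31, adjusted p = 1.27e-05).

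Secreted factors and their antagonists gave 6 risers and no faller among 24 tested of 33 listed, with a median log2 difference of 0.28. Csf1, which drives the proliferation of macrophages and microglia, stood at 18.3, 17.4 and 18.6 RPKM at day 3, against 2.16, 2.65 and 2.23 RPKM in naive ganglia (log2 difference 2.68, SE 0.13, adjusted p = 2.08e-08). An activin subunit and an activin antagonist were among the risers. Fst, follistatin, which binds and blocks activins, stood at 8.46, 12.5 and 10.4 RPKM at day 3, against 0.478, 0.943 and 0.507 RPKM in naive ganglia (log2 difference 3.24, SE 0.21, adjusted p = 5.60e-07). Inhbb, the beta-B subunit of activin and inhibin, stood at 6.03, 7.69 and 5.25 RPKM at day 3, against 1.57, 0.952 and 0.821 RPKM in naive ganglia (log2 difference 2.07, SE 0.20, adjusted p = 1.84e-05). Igfbp3, which binds insulin-like growth factors, averaged 10.01 ± 1.800 RPKM at day 3 and 2.301 ± 0.539 RPKM in naive ganglia (log2 difference 1.89). Bdnf, a neurotrophin, averaged 7.098 ± 1.53 RPKM at day 3 and 3.92 ± 0.836 RPKM in naive ganglia (0.75). Of 11 neurotrophin and GDNF-family receptors, Gfra1, the GDNF co-receptor, rose, at 66.2, 57.6 and 62.6 RPKM at day 3, against 27.9, 23.3 and 25.1 RPKM in naive ganglia (log2 difference 1.25, SE 0.12, adjusted p = 2.29e-05). Gfra2, the neurturin co-receptor, fell at the edge of the test (log2 difference -0.50, adjusted p = 0.04995), and the call was lost whichever library of the 2 groups was left out. In the gp130 and Stat3 group, 4 of 16 rose, among them the feedback inhibitor Socs2 (9.33 ± 1.24 RPKM at day 3, 4.78 ± 1.08 RPKM in naive ganglia, log2 difference 0.88), the tyrosine phosphatase Ptpn1 (0.78) and Il31ra, the interleukin-31 receptor of itch neurons (0.66).

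Of 17 tested growth arrest and cell death genes, 3 rose and none fell. Gadd45a, a stress sensor linked to growth arrest, stood at 43.5, 59.1 and 43.9 RPKM at day 3, against 7.75, 4.48 and 5.01 RPKM in naive ganglia (log2 difference 2.98, SE 0.26, adjusted p = 2.03e-05). Cdkn1a, the p21 inhibitor of cyclin-dependent kinases, averaged 20.02 ± 3.66 RPKM at day 3 and 5.801 ± 0.436 RPKM in naive ganglia (log2 difference 1.66). Gadd45g averaged 5.303 ± 0.915 RPKM at day 3 and 1.11 ± 0.626 RPKM in naive ganglia (1.90). Among 22 tested cell division genes, 1 rose, near the 3.72% of all tested genes that rose, and the median log2 difference was 0.20. That gene was Ccnb2, a mitotic cyclin, and its call was lost without any 1 of the 6 libraries other than naive replicate 2 (adjusted p 0.071 to 0.132).

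A set of genes was close to silent in naive ganglia and clearly present at day 3. A rule chosen after the values were seen took genes below 0.5 RPKM in all 3 naive libraries and at least 1 RPKM in all 3 day 3 libraries. There were 28 such genes, of which 27 rose, and they are given as a description only. Slc6a4, the plasma membrane serotonin transporter, stood at 4.04, 5.99 and 4.796 RPKM at day 3, against 0.051, 0.152 and 0.024 RPKM in naive ganglia. Its levels at day 1 were 1.76, 1.65 and 1.87 RPKM, between the others and not overlapping either. Mcoln2, an endolysosomal cation channel, averaged 3.37 ± 0.866 RPKM at day 3 and 0.2703 ± 0.119 RPKM in naive ganglia. Anxa10, an annexin, averaged 2.495 ± 0.774 RPKM at day 3 and 0.046 ± 0.016 RPKM in naive ganglia. Acvr1c, an activin and Nodal receptor, averaged 1.98 ± 0.078 RPKM at day 3 and 0.207 ± 0.124 RPKM in naive ganglia. The set also held Ecel1 and Cckbr, the fibroblast growth factor gene Fgf3 (1.36, 1.85 and 1.88 RPKM at day 3, 0.292, 0.1497 and 0.441 in naive libraries), the AMPA receptor auxiliary subunit Shisa9 (2.19, 1.67 and 2.13 RPKM at day 3, 0.202, 0.246 and 0.177 RPKM in naive libraries) and Retnla, a product of alternatively activated macrophages (2.19, 1.27 and 1.101 RPKM at day 3, 0.117, 0.498 and 0.1102 RPKM in naive libraries). The converse rule left 2 genes, Scarna17, a small Cajal body RNA, and Ccl24, an eosinophil chemokine. Scarna17 did not pass the test (adjusted p = 0.0867). Ccl24 stood at 0.484, 0.294 and 0.358 RPKM at day 3, against 1.89, 1.02 and 1.64 RPKM in naive ganglia (adjusted p = 0.0229).

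**Figure D3:**
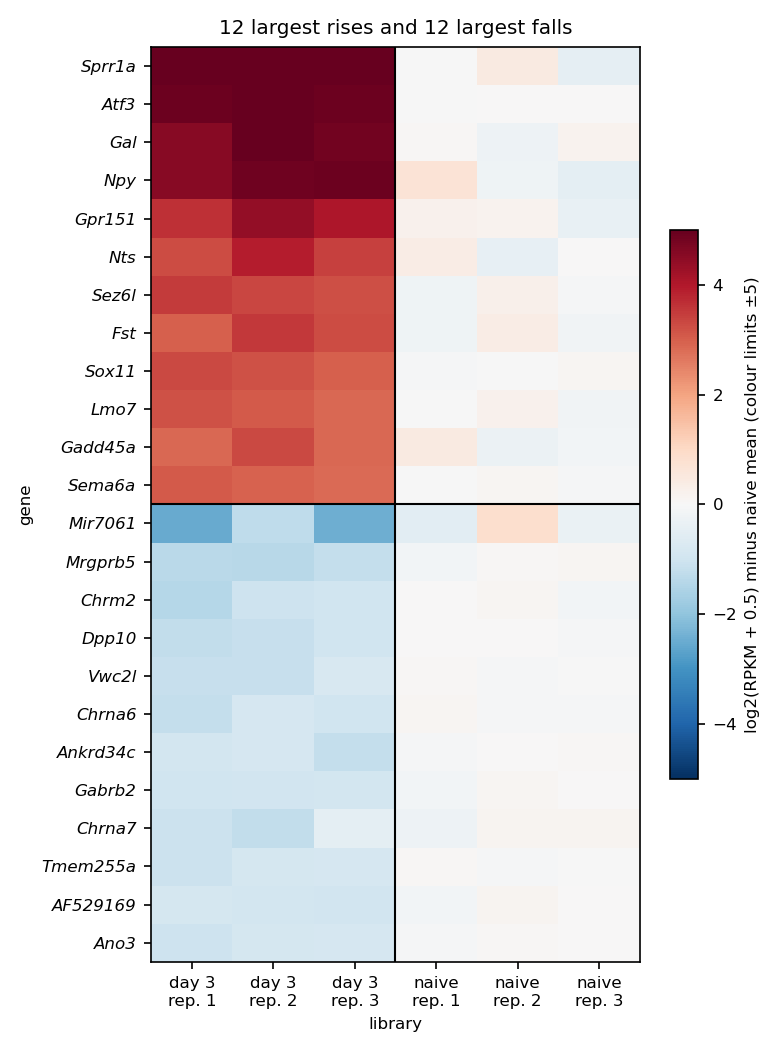
The 12 largest rises (upper block) and 12 largest falls (lower block) among annotated genes that passed the test with an average log2 value above 2 and no overlap between the groups, in each of the 3 day 3 libraries (left) and 3 naive libraries (right); colour gives log2(RPKM + 0.5) minus the naive mean, with colour limits at 5 log2 units either way. The rises shown are of 2.92 to 6.57 on the log2 scale, and the falls shown other than Mir7061 are between -0.94 and -1.33.

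The falls were smaller. Within the chosen lists most were in those of ion channels and receptors, but most of the 277 genes that fell belong to none of the lists. Of 26 tested Kv1 to Kv4 potassium channels and auxiliary subunits, 10 fell and none rose, with a median log2 difference of -0.49 and 24 of 26 below 0. Dpp10, an auxiliary subunit of Kv4 channels, stood at 20.7, 22.2 and 24.7 RPKM at day 3, against 50.2, 50.7 and 48.1 RPKM in naive ganglia (log2 difference -1.16, SE 0.13, adjusted p = 1.03e-04). Kcnip1, a calcium sensor of Kv4 channels, averaged 5.85 ± 0.7101 RPKM at day 3 and 9.72 ± 1.99 RPKM in naive ganglia (log2 difference -0.70, SE 0.14, adjusted p = 0.00767). The 3 day 3 libraries of Dpp10 and Kcnip1 lay below the 3 naive ones. Leaving out naive replicate 2 gave 3 fallers, naive replicate 3 gave 4, day 3 replicate 1 or 2 gave 5 and day 3 replicate 3 gave 6. Of 27 other potassium channels, 6 fell and none rose (median log2 difference -0.25). Kcnh7, an ERG-type channel, stood at 63.9, 67.00 and 65.5 RPKM at day 3, against 112, 122 and 124 RPKM in naive ganglia (log2 difference -0.89, SE 0.17, adjusted p = 0.00527). That count was 3 without day 3 replicate 1 or 2, 2 without naive replicate 3, and 1 without day 3 replicate 3, naive replicate 1 or naive replicate 2.

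Of 17 tested sodium channel subunits, 5 fell and none rose (median log2 difference -0.37). Scn11a, the Nav1.9 channel of nociceptors, stood at 79.9, 91.97 and 104 RPKM at day 3, against 142, 137 and 139 RPKM in naive ganglia (log2 difference -0.63, SE 0.12, adjusted p = 0.00595). Scn1a, the Nav1.1 channel, stood at 30.5, 29.96 and 29.3 RPKM at day 3, against 51.6, 54.6 and 55.8 RPKM in naive ganglia (log2 difference -0.87, SE 0.16, adjusted p = 0.0046). Scn4b, a beta subunit, averaged 17.7 ± 1.31 RPKM at day 3 and 26.4 ± 1.08 RPKM in naive ganglia (log2 difference -0.59). Fgf12, a fibroblast growth factor homologous factor that binds sodium channels, averaged 21.2 ± 3.45 RPKM at day 3 and 33.7 ± 2.82 RPKM in naive ganglia (-0.69). In all 4 genes the highest day 3 library was below the lowest naive one. Scn10a, the Nav1.8 channel, stood at 133, 136 and 159 RPKM at day 3, against 198, 216 and 206 RPKM in naive ganglia (log2 difference -0.56, SE 0.13, adjusted p = 0.0181). It passed under each setting except without day 3 replicate 1 (adjusted p = 0.072), day 3 replicate 2 (0.0934), naive replicate 2 (0.103) or naive replicate 3 (0.0774). The calcium channel list ran the other way at one member: Cacna2d1, the alpha2delta-1 subunit bound by gabapentin, stood at 328, 301 and 280.1 RPKM at day 3, against 104, 106 and 112 RPKM in naive ganglia (log2 difference 1.46, SE 0.19, adjusted p = 2.33e-04). The other 16 of 17 tested calcium channel genes gave no riser and 2 fallers, and both fallers lost the call without naive replicate 2, naive replicate 3 or any day 3 library.

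Among the other channels, Ano3, an anoctamin that modulates sodium-activated potassium current, stood at 76.96, 85.3 and 88.5 RPKM at day 3, against 153, 162 and 158 RPKM in naive ganglia (log2 difference -0.94, SE 0.16, adjusted p = 0.00272). Of 23 TRP, Piezo, acid-sensing and HCN channels, 2 fell and none rose. Trpm8, the cold receptor (log2 difference -0.67, adjusted p = 0.0144), lost its call without day 3 replicate 2 (adjusted p = 0.0761), day 3 replicate 3 (0.061) or naive replicate 2 (0.0873).

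Of 10 tested GABA-A receptor subunits 3 fell and 1 rose. Gabrg1, a gamma subunit, was the riser and averaged 14.52 ± 0.652 RPKM at day 3 and 7.65 ± 0.755 RPKM in naive ganglia (log2 difference 0.86, SE 0.17, adjusted p = 0.00683). Gabrb2, a beta subunit, fell (log2 difference -0.98, SE 0.22, adjusted p = 0.0144), and it lost the call without day 3 replicate 2 (adjusted p = 0.0538), naive replicate 2 (0.0733) or naive replicate 3 (0.0639). Of 13 ionotropic glutamate receptor subunits 3 fell and none rose. Gria2, an AMPA receptor subunit, averaged 9.57 ± 0.696 RPKM at day 3 and 16.3 ± 0.827 RPKM in naive ganglia (log2 difference -0.77). Grik1, a kainate receptor subunit, averaged 72.5 ± 6.17 RPKM at day 3 and 109.9 ± 9.05 RPKM in naive ganglia (-0.63). Of 19 acetylcholine and purinergic receptors 5 fell and 1 rose. Chrm2, the M2 muscarinic receptor, stood at 2.36, 3.23 and 3.300 RPKM at day 3, against 7.33, 7.61 and 6.504 RPKM in naive ganglia (log2 difference -1.18, SE 0.22, adjusted p = 0.00497). Chrna6, a nicotinic receptor subunit, stood at 5.07, 6.704 and 5.89 RPKM at day 3, against 13.3, 11.7 and 11.9 RPKM in naive ganglia (log2 difference -1.04, SE 0.16, adjusted p = 0.00102). P2ry1, an ADP receptor, averaged 18.3 ± 1.98 RPKM at day 3 and 33.5 ± 1.25 RPKM in naive ganglia (log2 difference -0.89, SE 0.17, adjusted p = 0.00653). The 3 genes had no overlap between the groups. The riser was P2rx3, the ATP-gated channel of nociceptors, at 46.6, 47.96 and 48.7 RPKM at day 3, against 35.5, 34.9 and 29.7 RPKM in naive ganglia (log2 difference 0.49, SE 0.12, adjusted p = 0.026). The list had no riser without naive replicate 1, naive replicate 3 or any one day 3 library, nor without scaling.

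Of 16 tested peptides, receptors and enzymes of uninjured nociceptors, 6 fell and P2rx3 rose, with a median log2 difference of -0.50, and 3 fell without naive replicate 2. The list had no riser without day 3 replicate 2, day 3 replicate 3, naive replicate 1 or naive replicate 3. Acpp, the acid phosphatase of non-peptidergic nociceptors, stood at 56.8, 66.7 and 72.7 RPKM at day 3, against 112, 109 and 98.2 RPKM in naive ganglia (log2 difference -0.73, SE 0.11, adjusted p = 0.00115). Mrgprd, a Mas-related receptor of the same class, stood at 24.95, 28.3 and 34.9 RPKM at day 3, against 48.3, 47.97 and 42.4 RPKM in naive ganglia (log2 difference -0.68, SE 0.13, adjusted p = 0.00489). Among 10 tested Mas-related receptors 3 fell and none rose, and the deepest was Mrgprb5, at 12.04, 11.8 and 13.6 RPKM at day 3, against 28.9, 32.5 and 33.4 RPKM in naive ganglia (log2 difference -1.33, SE 0.26, adjusted p = 0.0102). Mrgprb4, a receptor of neurons that sense stroking, averaged 17.6 ± 0.959 RPKM at day 3 and 28.9 ± 2.64 RPKM in naive ganglia (log2 difference -0.73). All 3 Mas-related calls held when any one library was left out. The classical nociceptor peptides did not pass the test. Calca, the precursor of CGRP, stood at 141, 219 and 245 RPKM at day 3 and 263, 186 and 202 RPKM in naive ganglia (adjusted p = 0.798). Tac1, the precursor of substance P, stood at 112, 159.8 and 162 RPKM at day 3 and 221, 151 and 170.0 RPKM in naive ganglia (adjusted p = 0.404), and both genes had overlapping groups. Inhibitory receptors of the kind that analgesics act on gave 4 fallers of 16 and no riser (median log2 difference -0.33), a count of 1 without naive replicate 2, naive replicate 3 or any one day 3 library. Chrm2 was the member that held. Oprm1, the mu opioid receptor, stood at 29.5, 25.7 and 26.6 RPKM at day 3, against 35.03, 40.6 and 43.6 RPKM in naive ganglia (log2 difference -0.56, SE 0.15, adjusted p = 0.042). Its call was lost without any 1 of the 6 libraries other than naive replicate 1 (adjusted p 0.0519 to 0.188).

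Transcription factors that define sensory neuron identity gave 5 fallers and no riser among 16 tested (median log2 difference -0.40), with 2 fallers without naive replicate 2 and 3 without naive replicate 3 or day 3 replicate 2. Hoxd1, a homeobox factor of nociceptor wiring in mice, stood at 1.78, 2.11 and 2.37 RPKM at day 3, against 4.53, 4.799 and 3.75 RPKM in naive ganglia (log2 difference -0.94, SE 0.18, adjusted p = 0.00717). Onecut1, a cut-homeodomain factor, stood at 3.76, 2.43 and 3.14 RPKM at day 3, against 5.66, 5.85 and 6.29 RPKM in naive ganglia (log2 difference -0.87, SE 0.18, adjusted p = 0.00833). The groups did not overlap for either gene. Of 32 synaptic vesicle release genes 4 fell and 1 rose (median log2 difference -0.22). None rose with any 1 of the 6 libraries left out other than day 3 replicate 1. Rab27b, a small GTPase of vesicle docking, stood at 8.65, 8.05 and 10.8 RPKM at day 3, against 17.2, 16.7 and 16.9 RPKM in naive ganglia (log2 difference -0.89, SE 0.16, adjusted p = 0.00319). Sv2b, a synaptic vesicle glycoprotein, averaged 61.3 ± 3.02 RPKM at day 3 and 95.9 ± 4.82 RPKM in naive ganglia (log2 difference -0.67). Cplx2, a complexin, averaged 13.6 ± 1.52 RPKM at day 3 and 21.1 ± 1.59 RPKM in naive ganglia (-0.65). Beside these falls, 16 general neuron markers had a median log2 difference of 0.07 with 2 risers and no faller, and with 1 riser without scaling or without naive replicate 2, naive replicate 3 or any one day 3 library. The largest fall among the named genes, Mir7061, a microRNA gene on chr7:130908268-130908335, stood at 0.917, 2.79 and 0.969 RPKM at day 3, against 5.13, 14.02 and 5.81 RPKM in naive ganglia (log2 difference -2.11, SE 0.52, adjusted p = 0.0436). It lost the call without day 3 replicate 1 (adjusted p = 0.149), day 3 replicate 3 (0.144), naive replicate 2 (0.124) or naive replicate 3 (0.0943). The call was also lost with a pseudocount of 1 (0.0539), with the 2 groups alone (0.0597) and with limma on voom-transformed reads (0.101). The gene is so short that these RPKM values stand for few reads. In the day 3 libraries 1 read in 1 kb was worth 0.0624 to 0.0659 RPKM, and 1 read in this much shorter gene is worth more.

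**Figure D4:**
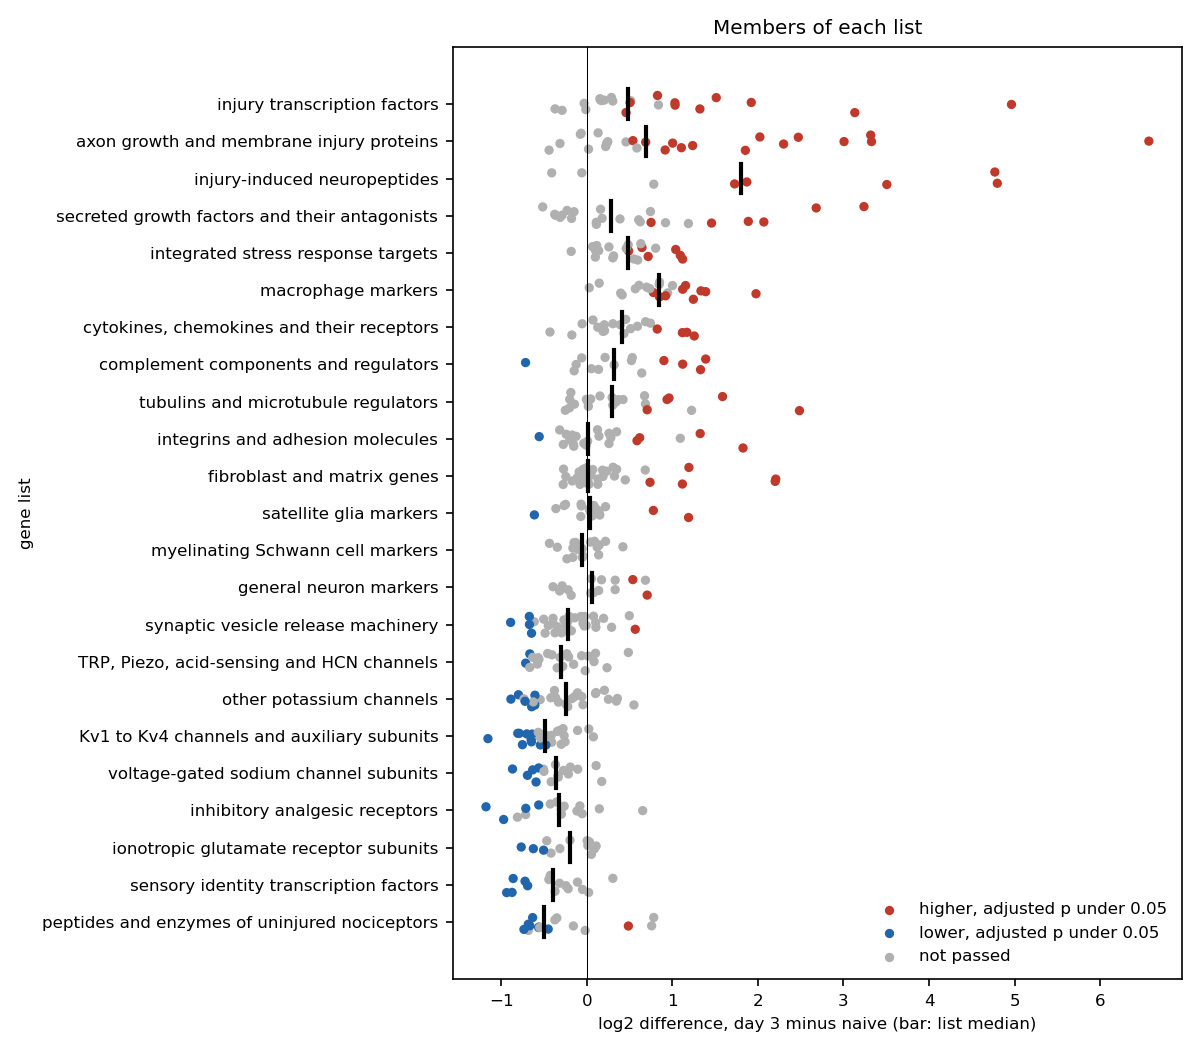
Log2 difference, day 3 minus naive, of each tested member of 23 gene lists; red points rose, blue points fell, grey points did not pass and the black bar is the median of the list. The medians of injury transcription factors, growth genes, neuropeptides, macrophage markers and cytokines with their receptors lie to the right of 0. The medians of the ion channel, analgesic receptor, glutamate receptor and sensory identity lists lie to the left within about 1 unit. Most of these lists have members on both sides of 0.

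Macrophage markers were higher at day 3. Of 21 tested of 27 listed, 9 rose and none fell, all 21 had a positive log2 difference, and the median was 0.85. Mrc1, the mannose receptor, stood at 12.5, 15.5 and 12.96 RPKM at day 3, against 6.07, 5.74 and 3.53 RPKM in naive ganglia (log2 difference 1.33, SE 0.17, adjusted p = 2.43e-04). Fcrls, an Fc receptor-like protein of resident macrophages and microglia, stood at 4.198, 4.45 and 5.49 RPKM at day 3, against 0.911, 1.05 and 0.496 RPKM in naive ganglia (log2 difference 1.98, SE 0.28, adjusted p = 5.75e-04). Ctss, the lysosomal protease cathepsin S, stood at 7.29, 11.3 and 9.11 RPKM at day 3, against 4.05, 3.33 and 3.100 RPKM in naive ganglia (log2 difference 1.25, SE 0.20, adjusted p = 0.00175). No naive library reached a day 3 library in these genes. Csf1r, the receptor for the product of Csf1, averaged 2.78 ± 0.492 RPKM at day 3 and 1.29 ± 0.235 RPKM in naive ganglia (log2 difference 0.85, SE 0.18, adjusted p = 0.0118). Its call was lost without day 3 replicate 2 (adjusted p = 0.0651), naive replicate 3 (0.0635) or both libraries with muscle transcripts (0.0632). The count of risers was 4 without day 3 replicate 2 and 4 without naive replicate 3. None of the 8 tested neutrophil and monocyte markers passed. S100a9, a neutrophil granule protein, stood at 5.24, 4.104 and 29.3 RPKM at day 3, with 1 library far above the others, and 6.79, 6.94 and 6.92 RPKM in naive ganglia. None of the 15 lymphocyte markers in the files reached the level for testing, and their sums were 1.77 to 2.38 RPKM at day 3 and 2.40 to 3.33 RPKM in naive libraries.

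Complement gave 4 risers and 1 faller among 15 tested, and 2 risers without day 3 replicate 2, naive replicate 2 or naive replicate 3. C4b, a classical pathway component, stood at 8.89, 8.63 and 8.05 RPKM at day 3, against 4.06, 4.23 and 4.43 RPKM in naive ganglia (log2 difference 0.90, SE 0.13, adjusted p = 6.20e-04). C3, on which the pathways converge, stood at 2.77, 3.12 and 4.27 RPKM at day 3, against 1.14, 0.824 and 1.07 RPKM in naive ganglia (log2 difference 1.33, SE 0.20, adjusted p = 0.00118). Cd55, a surface protein that speeds the decay of complement convertases and is abundant in nociceptors, fell to 101, 133 and 145 RPKM at day 3, against 226, 183 and 197 RPKM in naive ganglia (log2 difference -0.72, SE 0.13, adjusted p = 0.00466). Among 20 tested cytokines, chemokines and receptors 4 rose, 2 without day 3 replicate 2, day 3 replicate 3, naive replicate 2 or naive replicate 3, and none fell. The receptors Il1r1, for interleukin-1, and Tnfrsf1b, for tumour necrosis factor, averaged 12.1 ± 1.27 and 2.22 ± 0.639 RPKM at day 3 and 5.17 ± 0.067 and 0.606 ± 0.109 RPKM in naive ganglia (log2 differences 1.12 and 1.26, adjusted p = 5.58e-05 and 0.00197). The 28 tested antigen presentation and interferon genes gave 1 riser, close to the 3.72% of all tested genes that rose, and a median log2 difference of 0.13. The count was 0 with voom and without day 3 replicate 1 or 2 or naive replicate 2 or 3, and 2 without naive replicate 1.

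None of 18 tested myelin genes of Schwann cells passed (median log2 difference -0.05), nor did any of 17 vessel markers (-0.05). Of 17 satellite glia markers 2 rose and 1 fell (median 0.04). None fell with any 1 of the 6 libraries left out other than naive replicate 1, and 1 rose without day 3 replicate 2 or naive replicate 3. Glul, glutamine synthetase, averaged 29.8 ± 2.597 RPKM at day 3 and 16.95 ± 2.94 RPKM in naive ganglia (log2 difference 0.78, SE 0.16, adjusted p = 0.0105), and naive replicate 3 decided that call (adjusted p = 0.0657 when it was left out). Sox9, a glial transcription factor, averaged 1.73 ± 0.355 RPKM at day 3 and 0.468 ± 0.217 RPKM in naive ganglia (log2 difference 1.19, SE 0.24, adjusted p = 0.00839), and day 3 replicate 2 decided that one (0.0503 when it was left out). Of 12 repair Schwann cell genes 2 rose, Gap43, which neurons share, and Runx2. Runx2 lost its call without day 3 replicate 1 (adjusted p = 0.0866), naive replicate 1 (0.068) or naive replicate 2 (0.0708). Respiratory chain genes gave no call among 73 tested (median 0.07). All 76 tested ribosomal protein genes had a positive log2 difference (median 0.30) and 1 passed. None passed with any 1 of the 6 libraries left out other than day 3 replicate 2, nor with voom. Their summed levels overlapped between the groups, as given above.

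Of 21 tested targets of the integrated stress response 6 rose and none fell (median log2 difference 0.48), with 2 risers without naive replicate 2 and 3 without day 3 replicate 2. Aars, alanyl-tRNA synthetase, stood at 30.3, 30.2 and 32.3 RPKM at day 3, against 21.9, 16.6 and 16.7 RPKM in naive ganglia (log2 difference 0.72, SE 0.13, adjusted p = 0.00319). Mthfd2, a mitochondrial folate enzyme, stood at 7.202, 6.26 and 5.35 RPKM at day 3, against 2.83, 2.65 and 2.67 RPKM in naive ganglia (log2 difference 1.04, SE 0.20, adjusted p = 0.00523). Odc1, ornithine decarboxylase, the first step of polyamine synthesis, averaged 25.4 ± 3.31 RPKM at day 3 and 12.9 ± 2.95 RPKM in naive ganglia (log2 difference 0.93, SE 0.18, adjusted p = 0.00612). It was the member of 3 risers among 12 arginine, polyamine and tetrahydrobiopterin enzymes that held whichever library was left out. In a list of 28 tested cholesterol and lipid synthesis genes 2 rose, beside 3.72% of all tested genes, and 1 rose without day 3 replicate 2 or 3 or naive replicate 2 or 3. Hsd17b7, a sterol ketoreductase, stood at 55.4, 52.1 and 51.02 RPKM at day 3, against 20.4, 23.4 and 21.8 RPKM in naive ganglia (log2 difference 1.23, SE 0.14, adjusted p = 6.60e-05). Car3, a carbonic anhydrase abundant in fat and muscle, stood at 12.3, 14.3 and 15.7 RPKM at day 3, against 3.24, 1.21 and 2.499 RPKM in naive ganglia (log2 difference 2.42, SE 0.33, adjusted p = 8.29e-04). The adipocyte list that holds Car3 summed to 14.3, 15.9 and 20.1 RPKM at day 3 and 8.74, 2.80 and 6.02 RPKM in naive ganglia, and the part of other tissue in the result was not tested.

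Against day 1 after the same injury, day 3 differed in 72 genes (0.507% of those tested), 54 higher (0.380%) and 18 lower (0.127%). This comparison shares the day 3 libraries with the one above, and 47 of the 54 genes were also higher than in naive ganglia. Gal stood at 64.7, 93.2 and 76.9 RPKM at day 3, against 19.7, 12.6 and 17.5 RPKM at day 1 (day 3 minus day 1: log2 difference 2.17, SE 0.25, adjusted p = 0.00412). Anxa1 stood at 15.9, 18.9 and 23.2 RPKM at day 3, against 6.97, 7.07 and 5.35 RPKM at day 1 (log2 difference 1.47, SE 0.19, adjusted p = 0.00412). For Gal and Anxa1 the day 1 libraries lay above all naive libraries and below all day 3 ones. Neto1, an auxiliary protein of glutamate receptors, stood at 42.1, 36.8 and 33.5 RPKM at day 3, against 16.6, 12.5 and 13.5 RPKM at day 1 (log2 difference 1.34, SE 0.18, adjusted p = 0.00412), and at 12.2, 13.3 and 12.4 RPKM in naive ganglia. Cckar, the other cholecystokinin receptor, stood at 8.86, 9.22 and 9.76 RPKM at day 3, against 3.13, 3.44 and 4.203 RPKM at day 1 (log2 difference 1.23, SE 0.16, adjusted p = 0.00412), and at 3.38, 3.11 and 2.92 RPKM in naive ganglia. For Neto1 and Cckar the day 1 libraries overlapped the naive ones. Macrophage markers were also higher than at day 1, in 5 of 21 (Fcrls, Mrc1, Emr1, Ctss and Csf1r, log2 differences 0.88 to 1.66). Atf3, Jun and the other tested members of the injury transcription factor list gave no call between the days.

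Of the 18 genes lower at day 3 than at day 1, 14 were not called against naive ganglia, which does not show that they were at the naive level, and 4 were lower than in naive ganglia. Fam150b, a ligand of the Alk family of receptor kinases, stood at 3.31, 5.92 and 6.77 RPKM at day 3, against 15.7, 17.1 and 11.6 RPKM at day 1 (log2 difference -1.46, SE 0.23, adjusted p = 0.0145), with 3.29, 3.28 and 2.71 RPKM in naive ganglia. Fkbp5, a glucocorticoid-induced chaperone partner, stood at 5.22, 5.097 and 4.799 RPKM at day 3, against 8.63, 7.96 and 9.65 RPKM at day 1 (log2 difference -0.77, SE 0.15, adjusted p = 0.04). Sorl1, a sorting receptor of the endosome, stood at 39.3, 35.9 and 42.98 RPKM at day 3, against 63.1, 68.96 and 64.2 RPKM at day 1 (log2 difference -0.76, SE 0.15, adjusted p = 0.04), and 64.6, 74.03 and 72.4 RPKM in naive ganglia, where the day 1 and naive libraries overlapped. For all 3 genes the day 3 libraries lay below the day 1 libraries. The calls between these days were few and depended on single libraries: the count was 13 to 32 with any 1 of the 6 libraries left out, lowest without day 3 replicate 2, and Gal, Anxa1, Neto1 and Cckar were the named genes that held under every setting tried. Fam150b lost its call without day 3 replicate 2, day 1 replicate 1 or day 1 replicate 2, and Fkbp5 and Sorl1 lost theirs without any one of the 6.

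**Figure D5:**
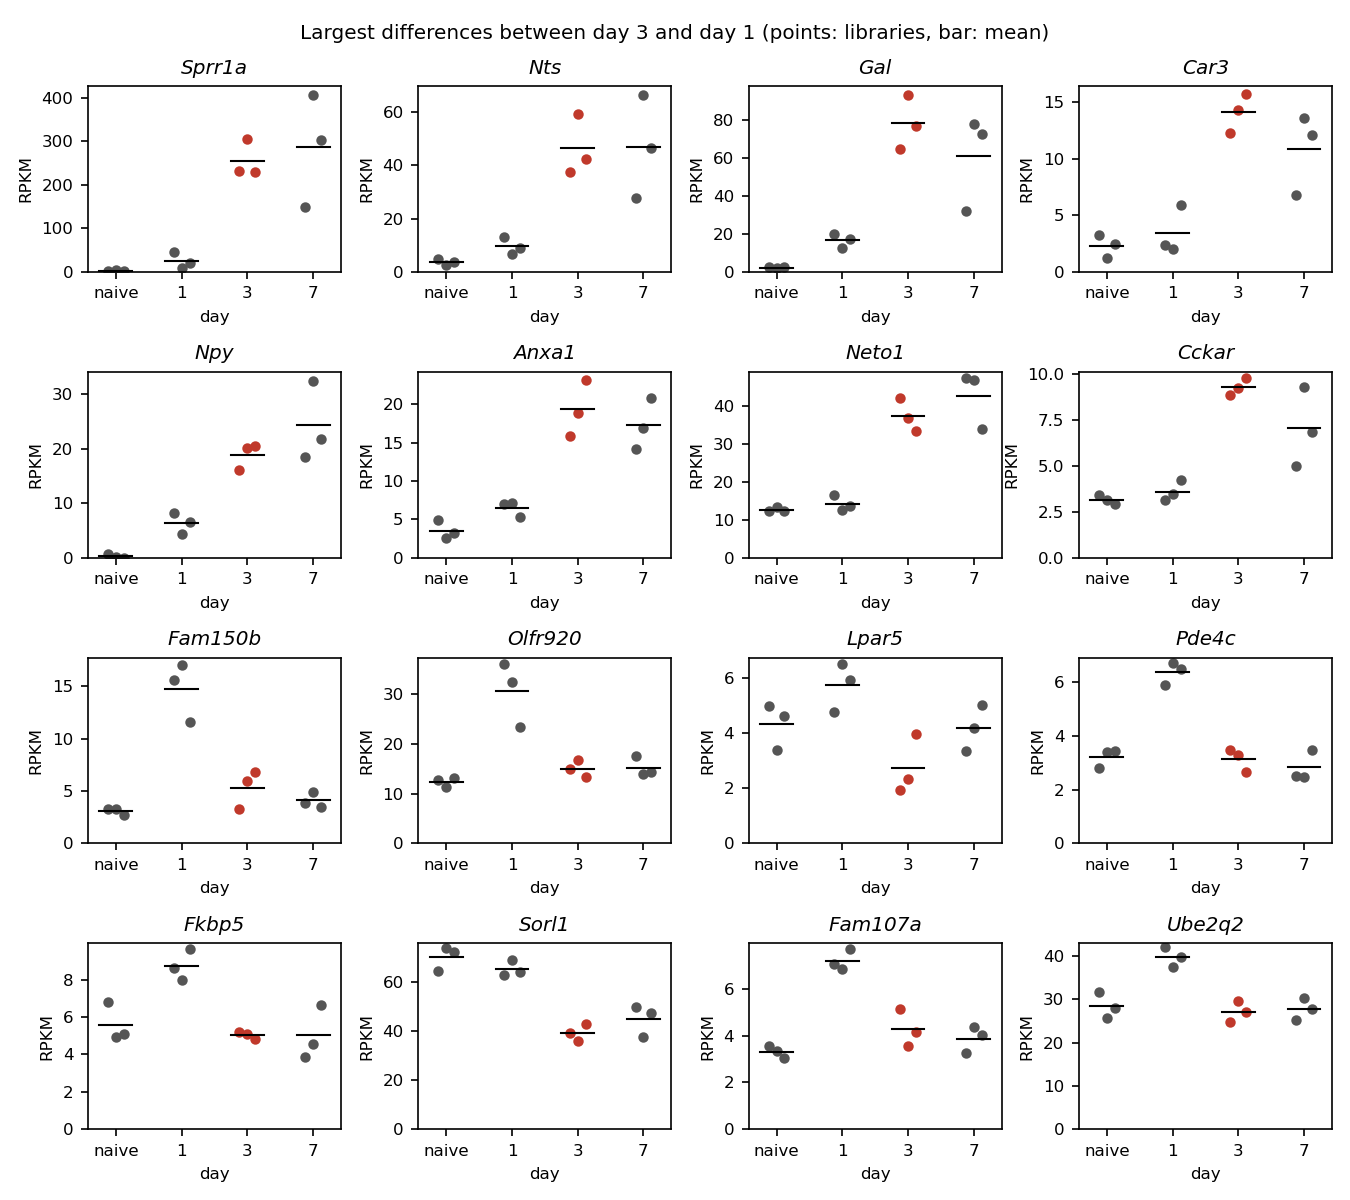
RPKM (linear axis from 0) in each library of the 8 largest rises and 8 largest falls between day 3 and day 1, among annotated called genes with an average log2 value above 2 and no overlap between the groups, with naive, day 1, day 3 and day 7 from left to right; bars are group means and day 3 is in red. Sprr1a, Gal and Nts are lower at day 1 than at days 3 and 7, while Fam150b, Olfr920 and Pde4c are highest at day 1.

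Between day 3 and day 7 no gene passed with limma, and 716 genes (5.04%) had an unadjusted p under 0.05. The count was also 0 with limma on voom-transformed recovered reads and with array weights, and it was 4 when genes at low levels were kept. Sprr1a had a log2 difference of -0.06 (95% confidence interval -1.24 to 1.13), Gal of 0.44 (-0.09 to 0.98), Gap43 of 0.41 (-0.07 to 0.89) and Atf3 of 0.71 (0.41 to 1.02), day 3 minus day 7. For Sprr1a, Gal and Gap43 the intervals include 0. The intervals are not adjusted for the number of genes, and Atf3 did not pass after adjustment. Atf3 stood at 84.1, 104 and 84.1 RPKM at day 3, against 44.1, 70.1 and 53.3 RPKM at day 7, without overlap. An exact test of 3 against 3 libraries cannot go below p = 0.1, so it cannot decide the question. Since limma gave no call after adjustment, a change of Atf3 between these days was not shown.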

How the data were processed

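RNA was extracted with Trizol, treated with DNase and amplified with a low-input kit (500 pg) before library construction, per the labels' protocols. The submitters' processing notes list the tools bcl2fastq 2.17, HTSeq, STAR, limma and edgeR and the build mm10, with no role for any of them. The annotation, the counting options and the strandedness are not stated in what was used here. Reads of overlapping or antisense genes therefore cannot be told apart. The files deposited by the authors hold 1 value per gene symbol (24060 symbols, of which 27 had turned into dates). These deposited values were read as RPKM, since 99.99% of the 21597 detected genes gave whole reads in every library (tolerance 0.05 reads). Amplified reads are not independent molecules.

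Genes with at least 1 RPKM in at least 3 of 12 libraries were kept (14195). Values were scaled by trimmed means of log ratios (30% and 5% trims), put on log2(RPKM + 0.5) and fitted in limma 3.58.1 (R 4.3.3) with 4 group means, 8 residual degrees of freedom and trended, robust variances, without a term for the replicate number. A separate exact test of 3 against 3 libraries could not go below p = 0.1. Tested on data simulated for day 3 against naive (14195 genes), the fit called 70% of 100 genes changed by 1 log2 unit and 93% of 100 genes changed by 2, with 6 false calls. The number of false calls in the deposited libraries, where ribosomal protein sums varied within a group, was not tested. Coordinates come from GENCODE M21 (mm10), promoter windows from RefSeq (GRCm38.p6), where 10233 tested genes matched by symbol.

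The genes named are the 15 largest rises and falls against naive, the 8 largest each way against day 1 and day 7 (called, average log2 above 2, groups not overlapping, no predicted genes), in each list the 4 or fewer members of lowest p, and 8 fixed markers. P2rx3, Calca, Tac1, S100a11, Klf6, Vgf, Bdnf, S100a9, Emr1 and Runx2 and the genes near silence in naive ganglia were named after their values were seen. The members and lists were chosen with earlier results of these data known. Alternatives covered scaling, pseudocount, low-value filter, samples in the fit, library weights, the replicate number, voom and each library left out. An alternative without the 2 libraries with muscle transcripts was chosen after seeing the data. A few named genes are not reported here.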

Additional observations from a re-analysis of the deposited data

Results flagged for a closer look

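The following genes, the largest called differences between day 3 and day 1 among annotated genes with an average log2 value above 2 and no overlap between the groups, are flagged because the change from naive ganglia was not the same on the 2 days. Values are log2 differences, day 3 minus day 1. Higher at day 3 were Sprr1a (3.55), Nts (2.20), Gal (2.17), Car3 (1.99), Npy (1.49), Anxa1 (1.47), Neto1 (1.34) and Cckar (1.23). Lower at day 3 were Fam150b (-1.46), Olfr920, an olfactory receptor gene (-1.03), Lpar5, a lysophosphatidic acid receptor (-1.01), Pde4c, a cAMP phosphodiesterase (-0.95), Fkbp5 (-0.77), Sorl1 (-0.76), Fam107a (-0.74) and Ube2q2 (-0.59). The adjusted p of Sprr1a was 0.0288. Its day 1 libraries stood at 46.5, 9.54 and 19.5 RPKM, and the call was lost without day 3 replicate 1, day 3 replicate 2, day 3 replicate 3, day 1 replicate 2 or day 1 replicate 3. With 1 of the 6 libraries left out, Ube2q2, Fkbp5 and Sorl1 lost their calls in all 6 settings, Npy, Car3, Olfr920, Pde4c, Lpar5 and Fam107a in 5 of the 6, Fam150b in 3 and Nts in 1. Over all settings Npy lost its call in 9, with adjusted p-values of 0.0651 to 0.411, the highest with a pseudocount of 0.1. Lpar5 and Fam107a lost theirs in more settings than Npy. Among these were no scaling (0.124 and 0.0823), a pseudocount of 0.1 (0.0552 and 0.0599) and the 2 groups alone (0.113 and 0.118). No cause was tested for any of these differences.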

How the results depend on the processing

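Day 3 against naive gave 805 calls, and 1954 with array weights, where 55.6% were higher against 65.6%. Leaving out 1 library gave 445 to 614, and the other scalings, pseudocounts, filters, the 2 groups alone and voom gave 704 to 1096. Day 3 against day 1 gave 72 calls, and 349 with array weights, 148 with voom, 31 with the replicate block, 46 without the 2 libraries with muscle transcripts and 13 to 32 with 1 library left out; without scaling 58 were called, 87.9% of them higher against 75%. Day 3 against day 7 gave 0 calls, and 4 with no filter on low values. The replicate block gave 652 calls against naive. Same-numbered day 3 and naive libraries did not deviate together (r = -0.23, -0.11 and -0.06). For same-numbered day 3 and day 7 libraries all values were positive (0.23, 0.18 and 0.07), and for day 3 and day 1 they were -0.02, -0.15 and 0.08. The numbers were not taken as a pairing, but an effect shared by same-numbered libraries is not excluded. None of the 138 named genes called against naive changed sign under any setting. For named genes that were not called, a sign change was counted only where the gene passed under the other setting. Of the 138 named genes called against naive, 93 passed under every setting. With 3 libraries a group, many calls rest on single libraries, and a gene that missed the threshold was not shown to be equal. The cause of these shifts was not tested beyond the number of libraries or genes in each setting.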
